A study of Homo sapiens with 6 samples.

Results

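Small leucine-rich proteoglycans are secreted matrix proteins built from leucine-rich repeats. The 10 genes described here are lumican (LUM), decorin (DCN), keratocan (KERA), epiphycan (EPYC), biglycan (BGN), asporin (ASPN), osteoglycin (OGN), osteomodulin (OMD), fibromodulin (FMOD) and PRELP. They were read by 24 probe sets, taken as every probe set of the platform that is annotated with exactly 1 gene symbol and names one of the 10, out of 54613 probe sets and 19775 genes on the array. The family was picked because LUM was already known to differ widely between the groups in these data, so the values of the members are given as a description, without p-values.

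The 6 samples are MDA-MB-231 cells, an established line from a human breast tumour with basal, mesenchymal-like character. In 3 of them, labelled GATA3, the cells carried a lentivirus for GATA3 and GFP. The 3 GFP control samples carried a lentivirus for enhanced GFP. Cells of both groups had been sorted for GFP, grown in dishes with 10% serum and harvested after 2 days. GATA3 is a zinc finger transcription factor needed for luminal differentiation in the breast. The sorted cells were not described as clones, and the promoter of the vector is not given in the sources used here. Whether the 3 arrays of a group came from different cultures is not stated, so the p-values below rest on variation among arrays that could be technical only.

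Proteins of this family coat collagen fibrils and limit their width, and they also bind growth factors and cell surface receptors. DCN, BGN and ASPN form class I, of which DCN and BGN carry chondroitin or dermatan sulfate chains. LUM, KERA, FMOD, OMD and PRELP form class II, in which LUM, KERA, FMOD and OMD can carry keratan sulfate. EPYC and OGN belong to class III. Fibroblasts and other stromal cells are the usual source of LUM and DCN in breast tissue. Values below are expression values on the log2 scale, and 1 unit is a doubling. The lowest value that the authors' background correction leaves, the floor, was 2.16 on every array. A value over 4 was taken as detected.

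Promoter sequence from RefSeq (GRCh38.p14) was at hand for 6 members: FMOD, PRELP, OGN, ASPN, EPYC and BGN. LUM, DCN, KERA and OMD had no entry. GATA factors are known to bind DNA with a GATA core, so each window, which spans 250 bases before to 50 after the start, was searched for AGATAA, for the spelling AGATAG, for its relative TGATAA and for the variant TGATAG, on both strands. All share the core, and neighbouring matches can share end bases. At least 1 was present in 8769 of 35116 windows of this length (25%). Among the 6 members FMOD held one, an AGATAA whose first base lies 204 bases before the start, and the entries of the other 5 held none. The FMOD window is shown because it alone holds a match while FMOD stayed dim on all 6 arrays, and that of EPYC because it is the entry nearest to LUM. Capitals mark the match.
FMOD (chr1:203351073-203351372, minus strand): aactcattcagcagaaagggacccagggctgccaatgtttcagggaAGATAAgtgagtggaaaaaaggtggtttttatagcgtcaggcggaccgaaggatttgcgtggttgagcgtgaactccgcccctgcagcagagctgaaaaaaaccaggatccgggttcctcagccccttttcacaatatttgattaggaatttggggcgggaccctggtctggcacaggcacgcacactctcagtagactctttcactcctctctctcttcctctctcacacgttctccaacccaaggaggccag
EPYC (chr12:91004923-91005222, minus strand): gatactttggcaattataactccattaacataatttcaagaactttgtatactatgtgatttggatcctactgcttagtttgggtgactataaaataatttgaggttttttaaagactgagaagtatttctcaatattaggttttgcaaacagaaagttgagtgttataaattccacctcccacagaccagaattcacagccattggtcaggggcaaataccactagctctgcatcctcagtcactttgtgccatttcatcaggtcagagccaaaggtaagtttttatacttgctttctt
A match is a run of letters and not a measured binding site.

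The readings of GATA3 itself went against the label. The brightest of its probe sets (209604_s_at) read 7.93, 7.94 and 7.32 in the arrays labelled GATA3, against 9.37, 9.35 and 9.45 in the GFP control arrays, a log2 difference of -1.66 (SE 0.18, adjusted p 0.00238). Probe set 209602_s_at of GATA3 was lower too, with 3.41, 3.28 and 3.04 in the arrays labelled GATA3, against 4.73, 4.38 and 5.07 in the GFP control arrays. It was over 4 in the control arrays alone, so no p-value is given. Probe set 209603_at was dim on all arrays and its groups overlapped. Whether the probes of GATA3 read the introduced sequence was not tested. All directions below are those of the arrays labelled GATA3 relative to the GFP control arrays and rest on the labels. Replicate 3 of the arrays labelled GATA3 stood somewhat apart: its 75th percentile was 7.78, against 7.97 to 8.04 on the other 5 arrays, and its raw file alone carries a later date. Among 6528 dim probe sets that stayed at 4 or under on all arrays and varied by over 0.05, that array held the highest value in 32.2%, against 10.3% to 15.4% on each of the other 5. Markers of the line were present: VIM, CD44, EGFR and AXL read 11.9 to 15.1 on all arrays. PGR was at the floor and ESR1 read 4.02 on 5 arrays. EPCAM and ERBB2, listed as low in this line, were not dim, with 10.8 or more for EPCAM and 9.25 or more for ERBB2 on every array. In the same fit EPCAM was higher in the arrays labelled GATA3 (log2 change 2.16, SE 0.09, adjusted p 8.82e-05). VIM was lower (-0.32, adjusted p 0.0158) and EGFR higher (0.33, adjusted p 0.0278). CD44, AXL, ERBB2 and ESR1 did not pass.

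LUM was bright in the arrays labelled GATA3 and undetected in the GFP controls. Its probe set 201744_s_at read 10.95, 10.98 and 10.96 in the arrays labelled GATA3, against 3.22, 3.03 and 3.50 in the GFP control arrays. The groups lay far apart, and the arrays labelled GATA3 differed from each other by less than the control arrays did. The means were 10.96 ± 0.02 in the arrays labelled GATA3 and 3.25 ± 0.24 in the GFP control arrays (SD, n = 3 each), at least 125-fold higher when the control is set at the detection level. The fitted log2 change was 7.71 (SE 0.13), but it rests on control values under that level. In bulk RNA, more cells that express LUM and more LUM RNA per cell cannot be told apart. The change ranked 10th among 10814 tested genes. A pattern of this kind, with a probe set at 4 or under on all control arrays and over 4 on all arrays labelled GATA3, was shown by 147 of 19775 genes (0.743%). The reverse pattern was shown by 0.47% of genes and by no member. In the same fit 29.3% of tested genes passed an adjusted p of 0.05, and the groups did not overlap in 49.5%. LUM was chosen for its difference and entered the fit only through the arrays labelled GATA3. Nothing is therefore read from its rank or from these shares.

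The other probe set of LUM stayed dim. Probe set 229554_at read 2.85, 2.85 and 3.19 in the arrays labelled GATA3, against 2.38 on each GFP control array. Its groups did not overlap and lay in the same order as those of the bright probe set, but no value reached 4, so it was not tested and no fold is given. The bright probe set carries the suffix _s_at, which marks probes shared between transcripts. The gain of LUM signal therefore rests on 1 of its 2 probe sets. Replicate 3 of the arrays labelled GATA3 was the highest for the dim probe set and in the middle for the bright one.

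The other 9 members stayed under the detection level on every array. Of their 132 values, from 22 probe sets, 109 lay within 0.01 of the floor, 1 was over 3 and none was over 4. In 15 of the 22 probe sets all 6 arrays agreed within 0.01. Thus 9 of the 10 members had no tested probe set, whereas 55.8% of the 19775 genes on the array had a value over 4 on some array and 53.2% had a probe set over 4 on all 6. A value at the floor says that a transcript was not detectable by that probe set, not that it is absent, and floor values have no order.

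**Figure D1:**
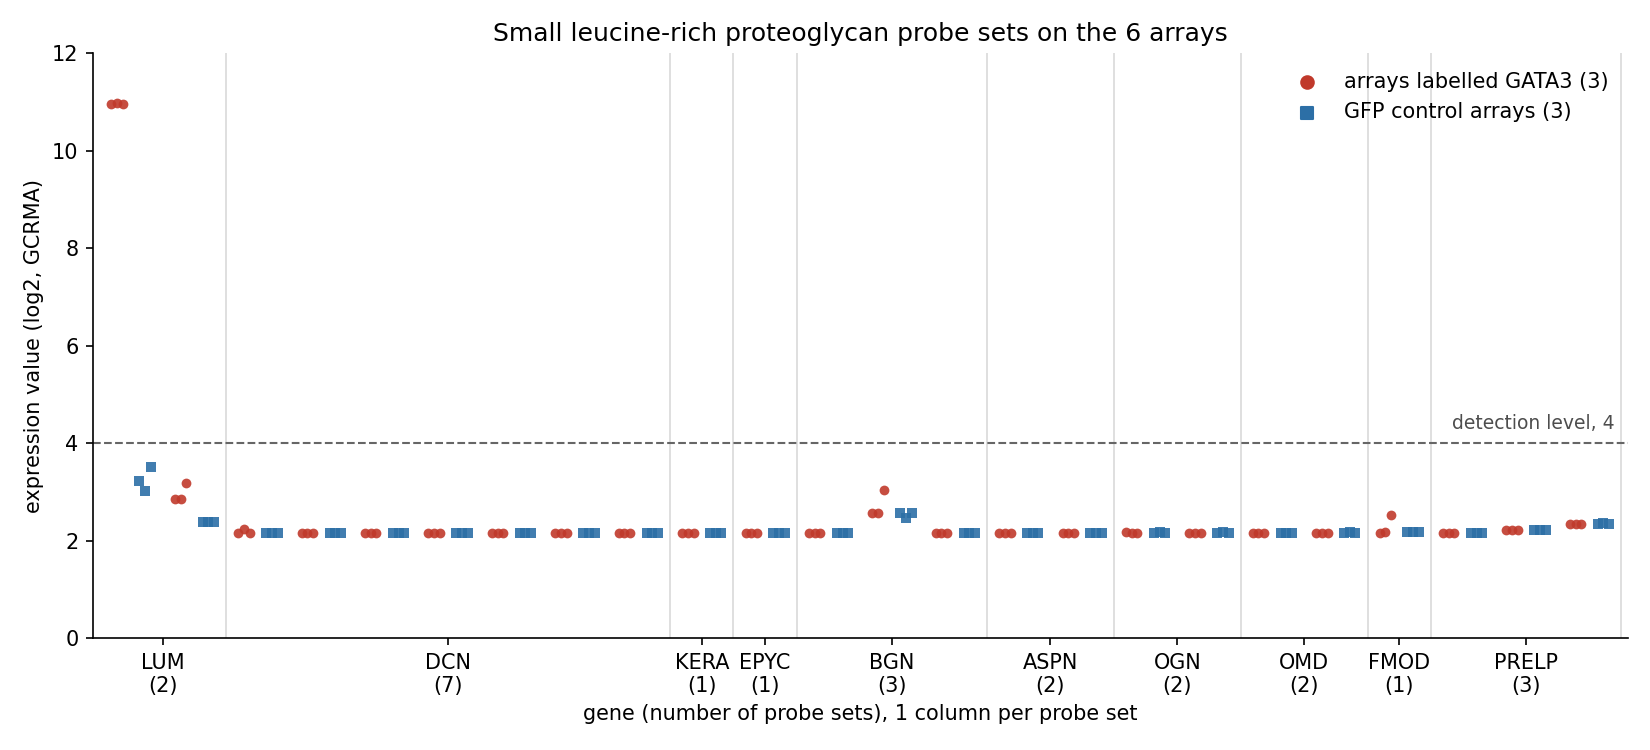
Expression value (log2) of the 24 proteoglycan probe sets on each array, 1 column per probe set grouped by gene, with circles for the arrays labelled GATA3 and squares for the GFP control arrays. The points near 11 belong to 1 LUM probe set in the arrays labelled GATA3, and all other points, including the second LUM probe set, lie under the dashed detection level of 4.

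Among class I genes, DCN had the most probe sets. DCN, whose protein binds collagen fibrils and sequesters TGF-beta, read 2.16 in 41 of 42 values from 7 probe sets, and 2.23 in replicate 2 of the arrays labelled GATA3 for 201893_x_at. BGN, the closest relative of DCN and an activator of Toll-like receptors when soluble, was at the floor in 2 probe sets on all arrays. Its probe set 201262_s_at read 2.56, 2.56 and 3.03 in the arrays labelled GATA3, against 2.56, 2.46 and 2.56 in the GFP control arrays. Those groups overlapped, and the highest value was on replicate 3 of the arrays labelled GATA3, the array on which dim probe sets were most often highest. ASPN, an inhibitor of TGF-beta in cartilage, was at the floor in all 12 values of its 2 probe sets.

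The class II genes other than LUM were dim as well. KERA, a corneal proteoglycan, was at the floor on all 6 arrays. FMOD, which binds collagen type I and II fibrils, read 2.16, 2.17 and 2.53 in the arrays labelled GATA3, against 2.17, 2.17 and 2.17 in the GFP control arrays, so that the groups overlapped and replicate 3 was again highest. OMD, known from bone, had values between 2.16 and 2.18 in its 2 probe sets. PRELP, which anchors basement membranes to connective tissue, gave 2.35 or 2.37 on every array for 37022_at, 2.22 for 228224_at and 2.16 for 204223_at. The class III genes EPYC, known from cartilage growth plates, and OGN, known from bone and vessel walls, lay between 2.16 and 2.18 on all arrays.

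LUM and 3 other members lie next to each other on human chromosome 12, in the order EPYC, KERA, LUM and DCN by the reference gene table, with no other protein-coding gene on the array between them. LUM was bright in the arrays labelled GATA3, while the genes on both sides of it, KERA and DCN, and the next gene, EPYC, stayed at or near the floor. The 5 nearest protein-coding genes with a probe set on each side of this cluster were compared in the same fit, in which 14.8% of 10814 tested genes were higher and 14.5% lower. Of these 10 neighbours 8 were tested. At an adjusted p under 0.05, 1 was higher, 2 were lower and 5 were not called. On the EPYC side, ATP2B1, a calcium pump of the plasma membrane, fell. It read 10.69, 10.63 and 10.21 in the arrays labelled GATA3, against 11.50, 11.63 and 11.75 in the GFP control arrays (log2 change -1.11, SE 0.15, adjusted p 0.00432). DUSP6, a phosphatase that inactivates ERK, also fell, to 11.62, 11.83 and 11.31 in the arrays labelled GATA3, against 12.55, 12.64 and 12.70 in the GFP control arrays (log2 change -1.04, SE 0.13, adjusted p 0.00415). KITLG, the ligand of the KIT receptor, rose slightly. Its values were 9.87, 9.83 and 9.84 in the arrays labelled GATA3, against 9.43, 9.54 and 9.40 in the GFP control arrays (log2 change 0.39, SE 0.06, adjusted p 0.00610). The rise of KITLG lost its call with the mean of all its tested probe sets (adjusted p 0.0585).

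POC1B on the same side (log2 change -0.28, adjusted p 0.210) did not pass. On the DCN side none of the 4 tested neighbours passed, which were BTG1 (0.12, adjusted p 0.276), EEA1 (-0.18, 0.396), UBE2N (-0.15, 0.0654) and MRPL42 (0.22, 0.0864). UBE2N did pass as lower without replicate 3 of the arrays labelled GATA3 (-0.18, adjusted p 0.0246). Of the 3 tested probe sets of MRPL42, the dimmest, 242289_at, fell (-0.97, adjusted p 0.0248). CCER1, next to EPYC, and NUDT4 read 2.21 or less on all arrays. Among the probe sets that represent the 8 neighbours, the largest log2 change was -1.11.

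**Figure D2:**
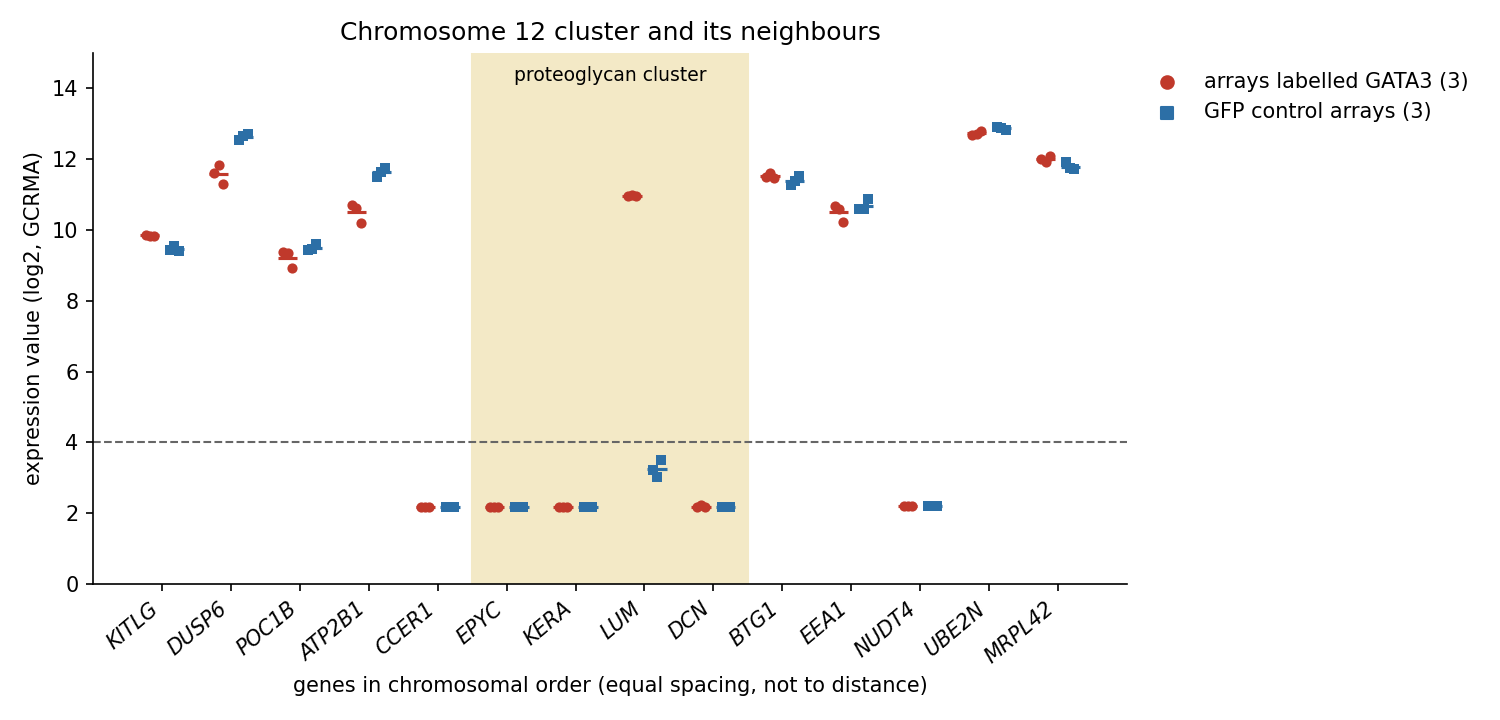
Expression value (log2) of the 4 clustered proteoglycan genes (shaded) and of 5 neighbours on each side, in chromosomal order with equal spacing, for the brightest probe set of each gene, with points for arrays and short lines for group means. LUM, at 10.96 in the arrays labelled GATA3 and 3.25 in the GFP control arrays, stands between genes at the floor, and the bright neighbours differ by 1.11 or less.

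The other members lie at 3 further places. OGN, OMD and ASPN are neighbours on chromosome 9, FMOD and PRELP on chromosome 1, and BGN lies on the X chromosome. Of 31 genes around these, 14 were tested. NOL8, a nucleolar protein gene on the OGN side, fell to 9.92, 9.74 and 9.78 in the arrays labelled GATA3, against 10.44, 10.50 and 10.43 in the GFP control arrays (log2 change -0.64, SE 0.06, adjusted p 0.00156). ATP2B4, a calcium pump gene near PRELP, rose by 0.42 (SE 0.11, adjusted p 0.0373). Its call was lost without GATA3 replicates 1 or 2 (adjusted p 0.101 and 0.107) and without GFP control replicates 1 or 2 (0.0938 and 0.119). Another of its probe sets, 212135_s_at, rose by 0.84 (adjusted p 0.000510). Over all 41 neighbours of the members, 22 were tested. Of these 2 rose (9.09%) and 3 fell (13.6%), against 14.8% and 14.5% over all tested genes. Their median log2 change was -0.02, which is also the median over all 10814 tested genes.

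Of the 8 family genes outside the list, 3 were tested and none passed in the limma fit (0 higher and 1 lower at an unadjusted p under 0.05). TSKU, a class IV member that binds BMP and Wnt ligands, was the brightest. It read 8.08, 8.10 and 7.72 in the arrays labelled GATA3, against 8.49, 8.28 and 8.40 in the GFP control arrays. Its groups did not overlap, with a log2 difference of -0.42 (SE 0.13, adjusted p 0.0648). It passed as lower without replicate 3 of the arrays labelled GATA3 (-0.30, adjusted p 0.0485). NYX had 4.15 on 3 of its 6 arrays and PODNL1 5.46 on 4 of 6. ECM2, OPTC, CHAD, CHADL and PODN read 2.38 or less on all arrays. The names TSKU, NYX and PODNL1 are given with knowledge of their values.

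Enzymes that build the sugar chains of these proteoglycans went both ways. Of 23 genes of chondroitin and dermatan sulfate synthesis 18 were tested, 5 rose (27.8%), 3 fell (16.7%) and 10 did not pass, against 14.8% higher and 14.5% lower over all tested genes. The median log2 change was 0.09, against -0.02 over all tested genes. DSEL, an epimerase that turns chondroitin into dermatan sulfate, fell most. Its values were 4.40, 4.93 and 4.18 in the arrays labelled GATA3, against 6.01, 5.88 and 6.19 in the GFP control arrays (log2 change -1.52, SE 0.21, adjusted p 0.00531). The other epimerase gene, DSE, rose to 10.44, 10.38 and 10.04 in the arrays labelled GATA3, against 9.51, 9.59 and 9.70 in the GFP control arrays (log2 change 0.69, SE 0.12, adjusted p 0.0123). CSGALNACT1, which starts the chondroitin chain, averaged 5.14 ± 0.19 in the arrays labelled GATA3 and 4.10 ± 0.33 in the GFP control arrays (SD, n = 3 each) and rose (log2 change 1.04, SE 0.19, adjusted p 0.0132). CHST14, the sulfotransferase specific for dermatan sulfate, fell by 0.54 on the log2 scale (SE 0.14, adjusted p 0.0387).

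The remaining calls of that list, chosen for naming once their values were known, were the polymerising factors CHPF (0.44, adjusted p 0.0180) and CHPF2 (0.34, 0.00938), and the sulfotransferases CHST15 (0.14, 0.0499) and CHST7 (-0.46, 0.00524). XYLT1, CHST13 and UST were at the floor, and CHSY3 read 2.72 or less. PXYLP1, also not tested, read up to 4.10 in the GFP control arrays and 2.28 or less in the arrays labelled GATA3. The call of CHST14 was lost without GATA3 replicate 1 (adjusted p 0.0848) and without GFP control replicates 1, 2 or 3 (0.0799, 0.129 and 0.121), and that of CSGALNACT1 without GFP control replicate 2 (0.0586). That of DSE was lost without GFP control replicates 1 or 2 (0.0516 and 0.0537), that of CHPF without GATA3 replicate 2 or GFP control replicates 1 or 2 (0.0640, 0.0660 and 0.0696), and that of CHST15 without GATA3 replicates 1 or 2 or any GFP control array (0.0944 to 0.131). The CHST15 call was lost with its sign kept in 11 of 16 alternatives, among them cyclic loess, median centring and the filter at 5. It was also lost, with its sign turned, with the mean of its probe sets (-0.075, adjusted p 0.551). Its dimmer probe set 244874_at lay lower in the arrays labelled GATA3 (-0.29, adjusted p 0.210).

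Keratan sulfate is the chain known from LUM. Of 7 genes of its synthesis 4 were tested, with 1 higher and 1 lower (25% each, beside 14.8% and 14.5% over all tested genes). The median log2 change was 0.43, against -0.02 over all tested genes. CHST2, which sulfates N-acetylglucosamine, fell. It read 6.34, 6.55 and 5.70 in the arrays labelled GATA3, against 9.09, 9.01 and 9.13 in the GFP control arrays, 7.38-fold lower (log2 change -2.88, SE 0.23, adjusted p 0.000700). B4GALT4, a galactosyltransferase of the chain, rose. Its values were 9.13, 9.23 and 8.90 in the arrays labelled GATA3, against 7.47, 7.46 and 7.72 in the GFP control arrays (log2 change 1.54, SE 0.12, adjusted p 0.000761). Its second probe set rose by 1.01 (adjusted p 0.00272). B4GALT1, another galactosyltransferase gene, named with its values known, read 7.16, 7.71 and 10.18 in the arrays labelled GATA3, against 7.34, 7.49 and 7.89 in the GFP control arrays, so that replicate 3 stood apart and the groups overlapped (log2 difference 0.77, SE 0.80, not past the threshold). The list median of 0.43 lies midway between B4GALT1 and B3GNT2 (0.09, also named with its value known), so it leans on that replicate. B3GNT7, which elongates keratan sulfate, and the sulfotransferases CHST1 and CHST6 read 2.51 or less on all arrays.

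Among genes that supply activated sulfate and sugars, 7 were tested. In the limma fit 3 fell (42.9%) and 0 rose (4 lower and 0 higher at an unadjusted p under 0.05), against 14.5% lower and 14.8% higher over all tested genes, and the median was -0.38. PAPSS2, which makes the sulfate donor PAPS, fell to 11.47, 11.55 and 11.28 in the arrays labelled GATA3, against 12.24, 12.31 and 12.29 in the GFP control arrays (log2 change -0.85, SE 0.08, adjusted p 0.00114). Its 2 other probe sets fell by 0.96 and 1.09. UGDH, the enzyme that makes UDP-glucuronic acid, fell by 0.51 (SE 0.08, adjusted p 0.00802). SLC35D1, which carries UDP-sugars into the endoplasmic reticulum, fell by 0.42 (SE 0.12, adjusted p 0.0489). Its call was lost in 8 of 16 alternatives, among them without GATA3 replicate 1 or GFP control replicates 1, 2 or 3 (0.0914 to 0.145). The other tested probe sets of SLC35D1 did not pass (-0.41, adjusted p 0.0666, and -0.21, 0.353).

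Some of the collagens that these proteoglycans coat were detected and others were not. Of 19 genes of collagens and their processing 8 were tested, 1 rose (12.5%) and 2 fell (25%), against 14.8% and 14.5% over all tested genes, with a median of -0.08. COL1A1, a chain of type I collagen, read 6.48 to 6.70 in the arrays labelled GATA3 and 6.57 to 6.68 in the GFP control arrays, and the groups overlapped. COL6A2 and COL6A3, chains of beaded filaments, were also over 4 on all arrays without a call. COL6A2 read 5.73 to 5.75 on all 6 arrays, so nearly constant that being over 4 need not mean detection. The fibrillar genes COL1A2, COL2A1, COL3A1, COL5A2, COL5A3, COL11A1 and COL24A1 read 3.20 or less on all arrays. COL5A1, a chain that starts fibrils, read 10.65, 10.72 and 10.83 in the arrays labelled GATA3, against 10.73, 10.62 and 10.76 in the GFP control arrays, and the groups overlapped. COL27A1, a fibrillar collagen of cartilage, fell to 5.05, 4.62 and 4.83 in the arrays labelled GATA3, against 7.11, 7.27 and 7.01 in the GFP control arrays (log2 change -2.29, SE 0.14, adjusted p 0.000256). Of its other tested probe sets, 225288_at was at least 4.76-fold lower and 225292_at did not pass (-0.08, adjusted p 0.458). COL12A1, a collagen that sits on the surface of fibrils, rose by 0.69 (SE 0.05, adjusted p 0.000683). COL6A1 fell by 0.36 (SE 0.08, adjusted p 0.0231), a call lost without GATA3 replicate 2 or GFP control replicates 2 or 3 (0.0547 to 0.0789) and by its probe set of suffix _at (-0.06, adjusted p 0.538).

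Among 21 receptors and growth factors known to bind soluble members of the family, 13 were tested, 5 rose (38.5%) and 1 fell (7.69%), with a median of 0.28. Over all tested genes 14.8% were higher and 14.5% lower. ITGA2, the alpha chain of a collagen-binding integrin reported as a LUM receptor, rose most. It read 12.63, 12.70 and 12.85 in the arrays labelled GATA3, against 10.00, 10.24 and 10.36 in the GFP control arrays, 5.77-fold higher (log2 change 2.53, SE 0.11, adjusted p 8.60e-05). Its second probe set gave 2.54. The partner chain ITGB1 overlapped between the groups (-0.02, adjusted p 0.887). MET, a receptor that DCN binds, rose by 0.56 (SE 0.04, adjusted p 0.000472). TLR4, a receptor of BGN, rose by 0.91 (SE 0.22, adjusted p 0.0332), and TGFB2, a growth factor bound by DCN, fell by 0.79 (SE 0.18, adjusted p 0.0270). CCN2 (0.41, adjusted p 0.000899) and EGFR (0.33, 0.0278) also rose, 2 genes outside the naming rule whose values were known. Of the other tested probe sets of EGFR, 2 rose (0.42 and 0.74) and 2 did not pass (0.01 and -0.01).

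The call of TLR4 was lost without any 1 array except GATA3 replicate 3 (0.0849 to 0.108), and 2 other tested probe sets of it did not pass (adjusted p 0.149 and 0.179). That of TGFB2 was lost without GATA3 replicates 1 or 2 or GFP control replicates 1 or 3 (0.0524 to 0.0990), and so was that of EGFR (0.0824 to 0.0930). The 3 other tested probe sets of TGFB2 all fell (adjusted p 0.00458 to 0.00674).

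Of 8 proteases known to cut core proteins of the family 3 were tested. In the fit 1 was higher, MMP3, and 1 was lower, MMP14. Over all tested genes 14.8% were higher and 14.5% lower. The higher count is the call of MMP3 alone, so nothing is read from it. MMP3, stromelysin 1, which cleaves DCN, was detected in the arrays labelled GATA3 alone. It read 7.12, 6.74 and 6.79 in the arrays labelled GATA3, against 2.80, 2.83 and 2.85 in the GFP control arrays, at least 7.39-fold higher with the control set at the detection level. It entered the fit only through the arrays in which it was high, so its call is not used as support and no p-value is given. MMP14, the membrane-type collagenase that cleaves LUM, fell to 7.48, 8.07 and 7.31 in the arrays labelled GATA3, against 9.00, 9.54 and 8.96 in the GFP control arrays (log2 change -1.55, SE 0.26, adjusted p 0.00966). Its 3 other probe sets fell by 0.89 to 1.23. BMP1, which trims BGN, did not pass (0.36, adjusted p 0.0968). MMP2, MMP7, MMP13, ADAMTS4 and ADAMTS5 read 2.58 or less on all arrays.

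**Figure D3:**
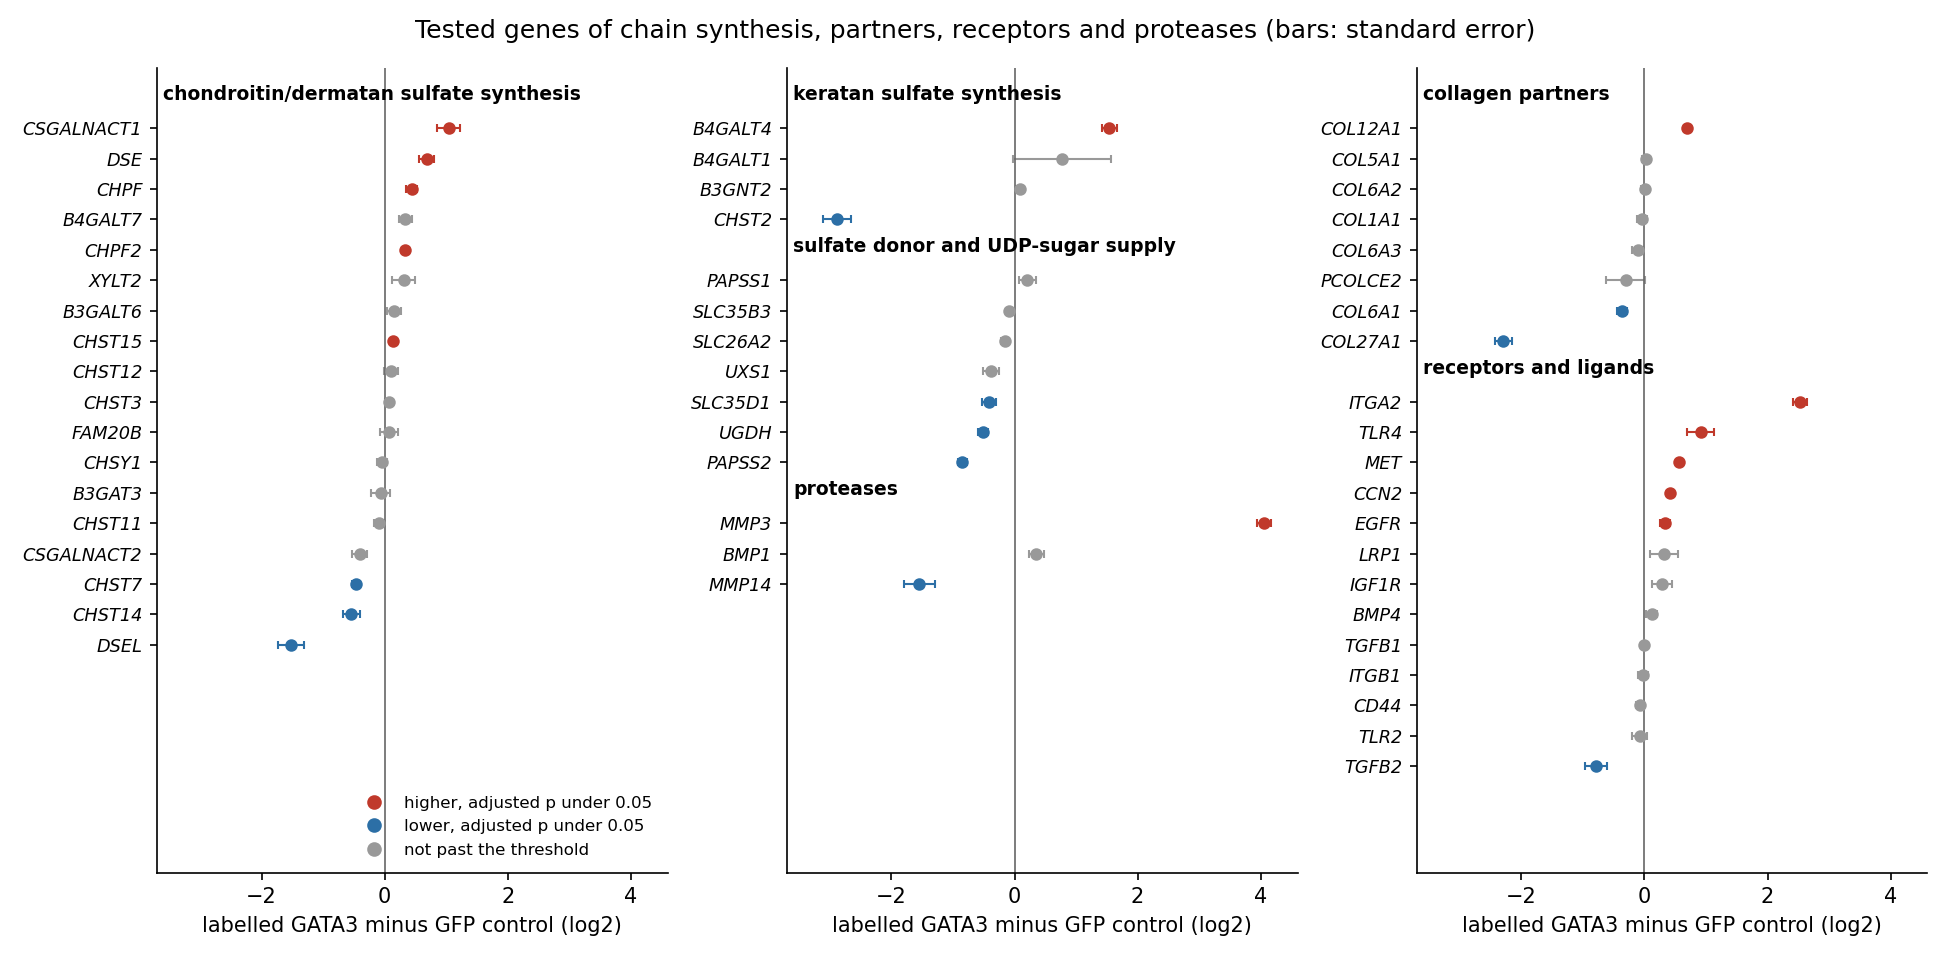
Log2 difference (arrays labelled GATA3 minus GFP control arrays) of each tested gene of 6 lists, with its standard error, coloured by whether it passed an adjusted p of 0.05. CHST2 (-2.88), ITGA2 (2.53) and COL27A1 (-2.29) lie far from 0, and the point of MMP3 (4.06) is set against undetected control values, which bound its change at no less than 7.39-fold. The colour of MMP3 is not used as support, because it entered the fit only through the arrays in which it was high.

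Markers of other cell types were compared because LUM is a stromal gene. Of 8 fibroblast or stromal markers 3 lay over 4 in at least 3 arrays, PDGFRB, COL1A1 and ACTA2. ACTA2 read 5.13 to 5.27 on all 6 arrays, and PDGFRB read 6.38 or 6.39 on the GFP control arrays. Values so nearly constant need not mean detection, although they are over 4. The summed level of the 8 was 29.13 to 30.61 in the arrays labelled GATA3 and 29.02 to 29.12 in the GFP control arrays. The lowest sum among the arrays labelled GATA3 lay just above the highest control sum. The sum includes markers under the detection level, so no shift is read from so narrow a gap. Its part in the LUM difference was not tested. PDGFRB (log2 difference 0.22) and ACTA2 (0.06) lay slightly higher without overlap. Over all tested genes the groups did not overlap in 49.5%, in either direction. Neither gene passed (adjusted p 0.325 and 0.541), and PDGFRB was highest on replicate 3 of the arrays labelled GATA3 (6.92). Of the other stromal markers, PDGFRA, THY1, FAP and POSTN read 2.27 or less on every array, at or near the floor, and COL3A1 reached 3.20 on replicate 3 of the arrays labelled GATA3. Blood (PTPRC) and endothelial (PECAM1, VWF, CDH5) markers read 2.20 or less.

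The genes whose pattern was most like that of LUM were found from the root mean square difference over the 6 arrays, with each probe set centred on its own mean. The 5 nearest were SLCO2A1, a prostaglandin transporter (0.15), PSG3 (0.16) and PSG9 (0.17), pregnancy-specific glycoproteins, RGS5, a regulator of G protein signalling (0.18), and PRND, a prion-like gene (0.19). All 5 were undetected in the GFP controls and read 9.87 or more in the arrays labelled GATA3. SLCO2A1, for example, read 9.87, 10.05 and 10.09 in the arrays labelled GATA3, against 2.33 on each GFP control array. The probe sets of PSG3 and PSG9 carry a suffix for shared probes and the family has near-identical copies, so which PSG gene was read is uncertain. The likeness follows mainly from the difference between the groups, and values under the detection level decide its order.

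**Figure D4:**
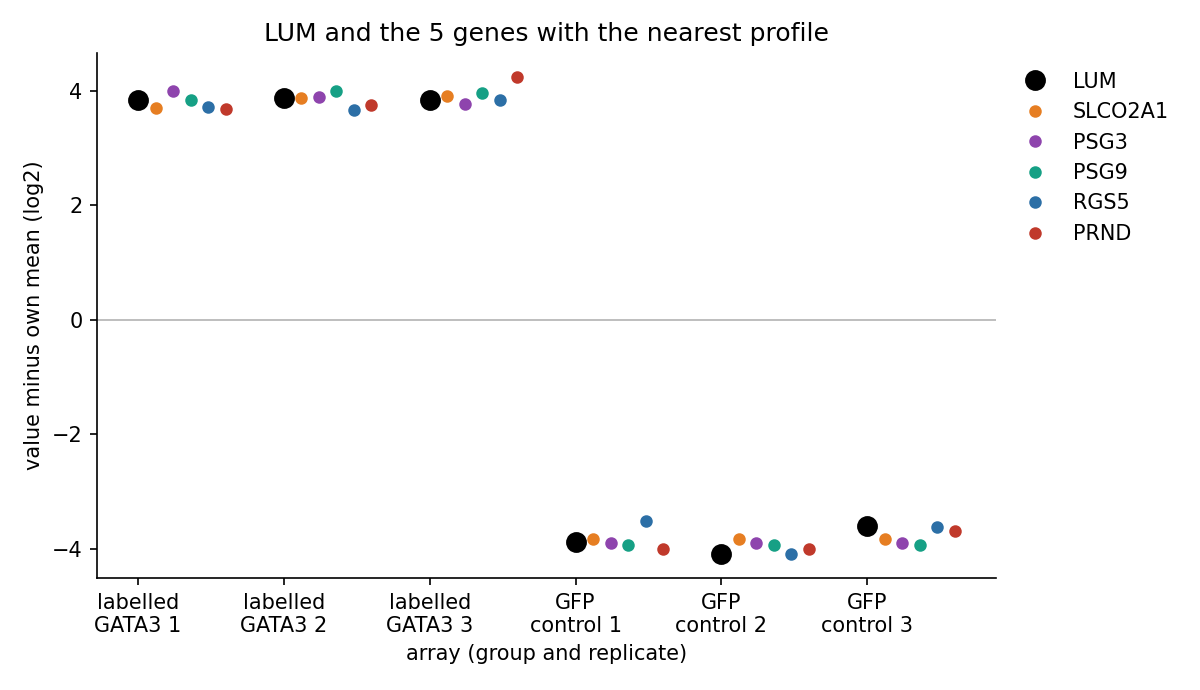
Value minus the probe set's own mean (log2) on each array for LUM (large black points) and the 5 genes of nearest profile, offset sideways for legibility. All 6 genes lie between 3.67 and 4.25 in the arrays labelled GATA3 and between -4.10 and -3.51 in the GFP control arrays.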

How the data were processed

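RNA was measured on 6 single-colour Affymetrix arrays. The authors made the deposited values, read here as log2, with GCRMA, per the submitters' processing notes. GCRMA corrects background from probe sequence, normalizes between arrays and gives 1 value per probe set. Neither its version nor the scale is stated in a header or label. The values were used as they are, without 62 control probe sets. A probe set was tested if over 4 in at least 3 of 6 arrays, which left 23785. The groups were compared with limma 3.58.1 (R 4.3.3, lmFit and eBayes with intensity trend), p-values being adjusted by Benjamini-Hochberg over all tested probe sets, of which 25.3% passed 0.05. A gene was represented by its brightest tested probe set. The fit was tested on simulated data in which 200 of 23785 probe sets were changed, far fewer than passed in the real data. It recovered 26.2% of changes of 0.5 on the log2 scale, 70% of changes of 1 and 82.5% of changes of 2. Of its calls 5.17% were false. A gene that did not pass can therefore still differ by such amounts. Members, lists and tests were chosen with earlier results of these data known. Named were all members, the chromosome 12 neighbours and, of each other list, the up to 4 genes of largest change past the threshold. The 16 alternatives were array weights, cyclic loess, median centring, a filter at 5 or none, a robust fit, no intensity trend, a replicate block, the mean of a gene's probe sets, probe sets of suffix _at alone, and each of 6 arrays left out. The number of arrays limits the precision. Gene order and promoters came from RefSeq.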

Additional observations from a re-analysis of the deposited data

How the results depend on the processing

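The log2 change of LUM was 7.60 to 7.84 in the fits that left out 1 array and 7.69 to 7.76 in the others. These values describe the difference LUM was chosen for, against undetected controls, and are no test of it. With probe sets of suffix _at alone LUM had no tested probe set, so that setting gave no value. Leaving out 1 array gave 2 to 8 chain synthesis genes higher (6 with all arrays) and 5 to 8 lower (7), 1 to 2 collagen partners lower (2), 3 to 5 receptor and ligand genes higher (5) and 0 to 1 lower (1), 1 to 2 proteases higher (1), 0 to 1 other family genes lower (0), and 1 to 3 cluster neighbours higher (2) and 3 to 5 lower (3). No pairing by replicate number was seen: deviations of same-numbered arrays correlated at -0.135, 0.159 and -0.109, and those of differently numbered arrays at -0.253 to 0.228. With 3 arrays per group this check cannot exclude a pairing. With the replicate block 4128 probe sets passed instead of 6027, and 2 chain synthesis genes were higher, 1 collagen partner lower, 0 receptor and ligand genes lower and 1 cluster neighbour higher. Without a filter on low values 3613 passed, and 1 collagen partner was lower, 3 receptor and ligand genes higher and 0 lower, and 1 cluster neighbour higher. With array weights, which did not converge, 11837 passed, and 2 proteases were higher, 1 other family gene lower, and 5 cluster neighbours higher and 6 lower. With the mean of all tested probe sets 2 collagen partners were higher, 2 receptor and ligand genes lower, 2 proteases higher and 1 other family gene lower. Cyclic loess gave 1 other family gene lower. The suffix _at alone gave 1 collagen partner lower and 2 proteases higher. Leaving out GFP control replicates 2 or 3 took the count of all passing probe sets to 3688 and 3739. CHST15 changed sign with the mean of its probe sets (-0.075, adjusted p 0.551), and MRPL42 with its probe set of suffix _at (-0.97, adjusted p 0.0248). The cause was not tested. Genes dim on all arrays could not be compared. The counts of higher proteases include MMP3, which entered the fit only through the arrays in which it was high.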
